A study of Mus musculus with 4 samples.

Results

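The genes described here are those of the Bcl2 family, the caspases and their inhibitors, and p53 with its regulators, in embryonic mouse forebrain. They were chosen by symbol, with earlier results of these data known, and 42 of the 27293 genes in the table of all 4 libraries carry a symbol on the list. Bulk RNA sequencing was done on telencephalic tissue of C57BL/6 embryos at embryonic day 13 (E13), in 2 libraries labelled WT and 2 labelled cKO, each made from 2 µg of total RNA. The cKO genotype is STINGf/f;Nestin-Cre, with Cre under the Nestin promoter, so that neural progenitors and the cells born from them lose the floxed part of STING, while vessels, blood and meninges are largely spared. Counts summed to 17209654 for WT 1, 18533391 for WT 2, 18237989 for cKO 1 and 18091688 for cKO 2, and 3 counts, the limit that a count of 0 allows, come to between 0.162 and 0.174 CPM, the scaled unit used below. Pairs of values give library 1 before library 2. The comparison asked here is whether the transcripts that set a cell's readiness to die differ between cKO and WT forebrain.

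Apoptosis by the mitochondrial route starts when BH3-only proteins, sensors of stress, overcome the antiapoptotic Bcl2 proteins, so that Bax and Bak1 open pores in the outer mitochondrial membrane. Cytochrome c then binds Apaf1, the complex activates caspase 9, and further caspases dismantle the cell unless inhibitors of apoptosis (IAPs) such as Xiap hold them back. p53, kept low by Mdm2 and Mdm4, switches on several of these genes after DNA damage, and neural progenitors of the embryonic forebrain are known to depend on this balance, with Casp9 and Apaf1 needed to remove surplus progenitors and Mcl1 and Bcl2l1 needed to keep progenitors and young neurons alive.

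The targeted gene did not separate the labels. Tmem173, the older symbol of STING, had 20 and 19 counts in the WT libraries and 18 and 22 in those of cKO, all low and overlapping between the groups. The count adds exons inside and outside the floxed part over all cells of the tissue, so the genotype is taken from the labels only. WT 2 stood apart in its title, which ends in nes where that of WT 1 ends in wt, and whether this embryo carried Nestin-Cre is not stated. Summed over Ddx3y, Eif2s3y, Kdm5d and Uty, all Y-linked, WT 2 also had 0 counts where WT 1 had 2735, cKO 1 3002 and cKO 2 1848, so sex was not balanced between the groups. Nothing states that the libraries came from separate embryos, so each p-value measures only the spread between these samples.

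Markers of the labelled tissue were high in every library. The 9 cortical progenitor genes, Vim with the most reads among them, summed to 2704 and 2571 CPM in the WT libraries and 2807 and 2843 in those of cKO, and the 8 neuronal genes, led by Tubb3, to 5088, 5883, 5532 and 4894 CPM in the same order. WT 1 stood apart in other tissue. The 7 choroid plexus genes with a row, led by Otx2, summed to 48.4 CPM in WT 1 and to 9.72, 6.56 and 8.56 CPM in WT 2, cKO 1 and cKO 2, with Folr1 at 0 in WT 2 and Kcnj13 at 0 in cKO 2. The 10 genes of meninges and mesenchyme, led by Col3a1, summed to 325 and 73.3 CPM in the WT libraries and 101 and 55.3 in those of cKO. The 7 endothelial genes, led by Kdr, summed to 201, 150, 133 and 132 CPM in this order, the 10 erythroid genes, led by Hbb-y, to 1092, 593, 477 and 729 CPM, and the 12 genes of microglia and macrophages, led by Csf1r, to 61.0, 39.7, 37.0 and 45.3 CPM. The 9 genes of the ventral telencephalon, led by Dlx1, gave 1030, 986, 658 and 1015 CPM, lowest in cKO 1. Among them, Gad1 (79.8, 73.4, 57.5 and 54.9 CPM) and Gad2 were lower in both cKO libraries than in both WT libraries. For the rest of the 9 the groups overlapped. Of these tissue markers, Otx2, Aqp1, Htr2c, Col1a1 and Col1a2 met the thresholds of the study, all lower in cKO. The part of other tissue in the values of the apoptosis genes was not tested.

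Of the 42 genes, 32 passed the filter on low counts and were compared between cKO and WT with edgeR's quasi-likelihood test, fitted on 16145 genes. The study called a gene when cKO and WT differed 2-fold or more with an unadjusted p no higher than 0.05. Of the 32, 0 were called, against 0.811% of all genes tested. Among genes with a mean of at least 100 counts, 0 of 28 on the list were called, and 12 of all 11346. After Benjamini-Hochberg adjustment across the genome, 0 of the 32 had an adjusted p under 0.05 in edgeR, as did 0% of all genes, and the adjusted p was 0.9999 for each of the 32. At an unadjusted p under 0.05 there were 0 of 32, against 1.23% of all genes, and DESeq2, run without the filter on all 42, also gave 0 at each of these thresholds. The lowest unadjusted p was 0.231, for Bcl2l12. With any 1 library left out, 0 genes of the list were called as well. Without cKO 1, however, an unadjusted p under 0.05 was reached by 5 of them, Xiap, Birc2, Bbc3, Bad and Bax (lowest p 0.000963), as it was by 2542 of 16915 genes tested, and with any other library left out by 0. In bulk tissue, fewer cells that express a gene and less RNA per cell cannot be told apart.

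The log2 fold change of cKO over WT was above 0 in 16 of the 32 genes and below 0 in the other 16. Its median was -0.0035, against -0.0094 over all genes tested, and its median size was 0.089, against 0.13. Differences of 2-fold lay outside the 95% interval on both sides for 29 of the 32, a property of 70.1% of all genes tested. The 3 exceptions were Pmaip1, Bcl2l15 and Tnfrsf10b, which have few counts. Level matters here, since among genes with a mean of at least 100 counts it held for 28 of 28 on the list and 10599 of all 11346. At that level the median size of the log2 fold change was 0.085 on the list and 0.099 over all. Both cKO libraries lay above both WT libraries for 5 of the 32 (15.6%), among them Bid, Bmf, Bcl2l11 and Bcl2l13, and this held for 11.0% of all genes. The reverse, with the higher cKO library under the lower WT one, was seen for 3 of the 32 (9.38%), Casp8, Bcl2l12 and Bcl2l15, against 10.8% of all genes. These shares lie near the background, and the names were given after their values were seen. Without WT 1 the counts were 8 and 6 of the 32, with 24.1% and 23.8% of all genes, and without WT 2 they were 10 and 9, with 26.2% and 29.7% of all genes. Without cKO 1 they were 13 and 12, with 37.3% and 38.2% of all genes, and without cKO 2 they were 12 and 10, with 30.9% and 33.3%.

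**Figure D1:**
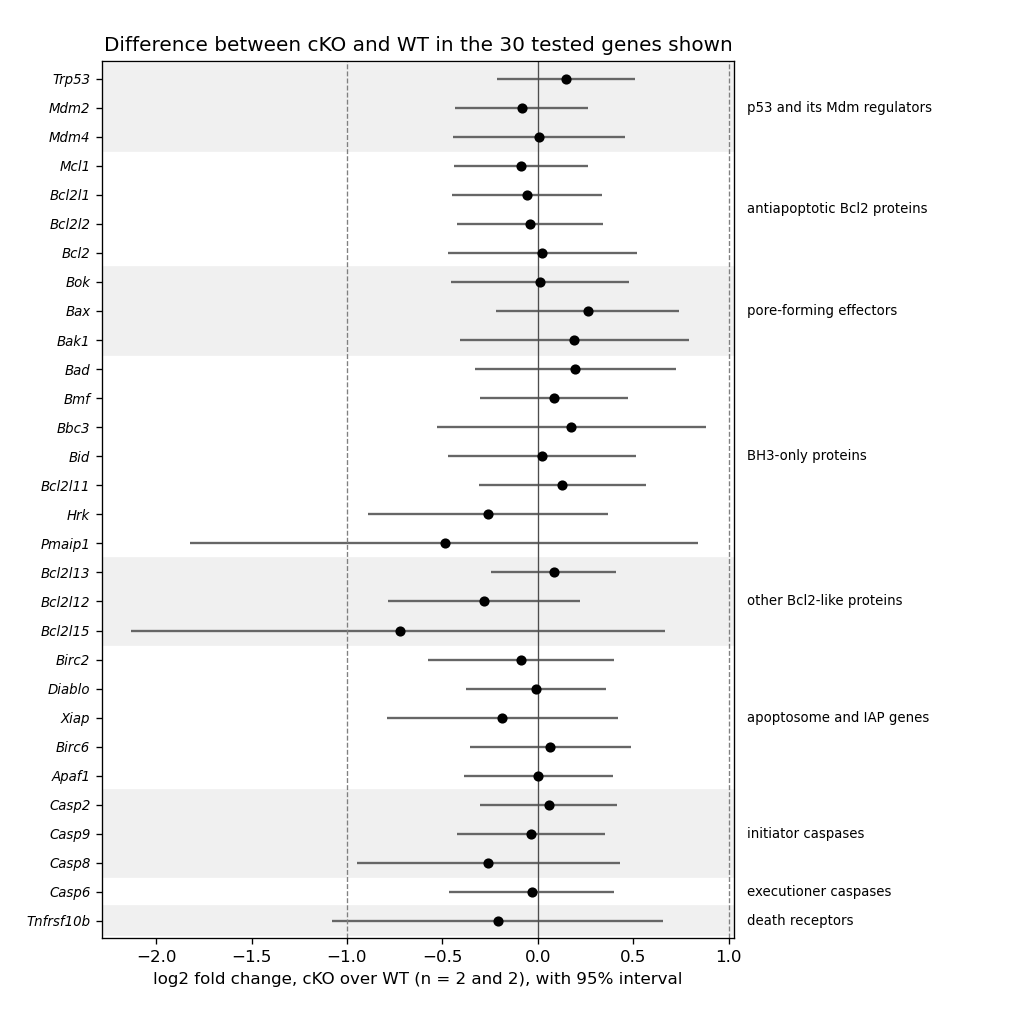
Log2 fold change of cKO over WT for 30 of the 32 genes tested (points, n = 2 libraries a group) with the 95% interval of each difference (bars), ordered by role; dashed lines mark 2-fold. Every interval shown includes 0, and those of Pmaip1, Bcl2l15 and Tnfrsf10b pass -1.

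Trp53, the gene of p53 (ENSMUSG00000059552, chromosome 11 from 69580359 to 69591873), was among the most abundant. Its normalized level was 157 and 174 CPM in the WT libraries and 169 and 198 in those of cKO. The cKO 2 library was highest and WT 1 lowest, and cKO 1 fell between the WT libraries, so the groups overlapped. The group values were 165 ± 11.7 CPM in WT and 183 ± 20.7 in cKO (SD, n = 2 each), a log2 fold change of 0.15 with a 95% interval from -0.21 to 0.51. With 1 library left out the value for Trp53 ran from 0.042, without cKO 2, to 0.26, without cKO 1. Mdm2 (ENSMUSG00000020184), the ubiquitin ligase that degrades p53 and is itself switched on by it, had 83.3 and 86.3 CPM in WT libraries against 85.6 and 74.4 in cKO. Only cKO 2 stood off from the others, on the low side. Mdm4 (ENSMUSG00000054387), which binds p53 and blocks its activity, had 185 and 187 CPM in the WT libraries and 221 and 152 in those of cKO. The WT libraries lay close together, and the cKO libraries fell on opposite sides of them. The log2 fold changes were -0.085 for Mdm2 (standard error 0.15) and 0.0064 for Mdm4 (standard error 0.19), both under the gap between the cKO libraries. Leaving out cKO 1 gave -0.29 for Mdm4, leaving out WT 1 gave -0.0036, and leaving out cKO 2 gave 0.26. Per kilobase of exon the order was Trp53 (43.1 CPM), Mdm2 (16.2) and Mdm4 (12.6) as means of the 4 libraries, and the ratio of Mdm4 to Mdm2 on this scale was 0.762, 0.745, 0.888 and 0.704 in WT 1, WT 2, cKO 1 and cKO 2.

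Among the antiapoptotic genes, Mcl1 (ENSMUSG00000038612) and Bcl2l1 (ENSMUSG00000007659), which encodes Bcl-xL, held most of the reads. Mcl1, whose protein is short-lived and protects cycling progenitors, had 172 and 153 CPM in the WT libraries and 162 and 144 in those of cKO. Bcl2l1, which guards young neurons, had 150, 149, 124 and 163 CPM in the same order. For Mcl1 the groups overlapped, with cKO 2 lowest, and for Bcl2l1 the WT libraries were almost equal while cKO 1 lay below and cKO 2 above them. The log2 fold change was -0.089 for Mcl1 (95% interval from -0.44 to 0.26) and -0.055 for Bcl2l1 (-0.45 to 0.34). Without cKO 1 they were -0.17 and 0.13, and without cKO 2 they were 0.0049 and -0.25. Bcl2 itself (ENSMUSG00000057329), the founding member of the family, had 26.9 and 25.1 CPM in the WT libraries and 31.0 and 21.9 in those of cKO, again with the cKO libraries on either side of WT. Its log2 fold change of 0.024 turned to -0.24 without cKO 1 and to -0.011 without WT 2. Bcl2l2, encoding Bcl-w, ranged only from 35.3 to 38.6 CPM over the 4 libraries. Bcl2a1d and Bcl2l10 had 1 count in 1 library each and 0 in the others, so neither was detectable beyond the limit of 3 counts at this depth. The symbols Bcl2a1a, Bcl2a1b and Bcl2a1c have no row in the table and were not analysed here. Per kilobase of exon the means were 46.2 CPM for Mcl1, 32.0 for Bcl2l1, 8.26 for Bcl2l2 and 2.87 for Bcl2, and this order held in every library. The 6 antiapoptotic genes with a row summed to 387 and 364 CPM in WT libraries against 352 and 367 in cKO.

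The pore-forming effectors were all highest in cKO 2, as were 5424 of the 16145 genes tested. Bax (ENSMUSG00000003873, chromosome 7 from 45461697 to 45466898), which moves from the cytosol to mitochondria on activation, had 27.4 and 29.5 CPM in the WT libraries and 28.5 and 39.7 in those of cKO. Bak1 (ENSMUSG00000057789), which resides in the mitochondrial membrane, had 17.9, 13, 14.5 and 20.8 CPM in this order. Bok (ENSMUSG00000026278), a relative found largely in the endoplasmic reticulum, had 37.6, 43.0, 34.3 and 47.0 CPM. In Bax and Bak1 the cKO 1 value fell inside the range of the WT libraries, and in Bok it was the lowest of all 4, so the groups overlapped for each effector. Bax had the largest log2 fold change above 0 of all 32 genes, 0.26 with a standard error of 0.21 and a 95% interval from -0.22 to 0.74, from 28.4 ± 1.49 CPM in WT to 34.1 ± 7.92 in cKO (SD, n = 2 each). It was 0.48 without cKO 1 and 0.015 without cKO 2, so cKO 2 decided its size. Bak1 had 0.19 (standard error 0.26), with -0.075 without cKO 2 and -0.012 without WT 2. Bok had 0.012 (standard error 0.20), with -0.22 without cKO 2 and -0.081 without WT 1. Per kilobase of exon Bok and Bax were close, with means of 22.0 and 19.8 CPM, and Bak1 was lower at 6.88 CPM.

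Among the 8 BH3-only genes, those with the widest gaps between libraries were again split by library more than by group. Bad, a sensor of growth factor withdrawal, had 21.2 and 25.2 CPM in the WT libraries and 21.8 and 31.4 in those of cKO. Bbc3 (ENSMUSG00000002083), which encodes Puma and is a main p53 target in dying neural cells, had 11.5, 11.7, 9.24 and 17.0 CPM in the same order. The WT libraries lay within 1.02-fold for Bbc3, whereas cKO 2 was 1.84 times as high as cKO 1, with WT between them. The log2 fold change was 0.20 for Bad (standard error 0.23) and 0.18 for Bbc3 (standard error 0.31), and without cKO 2 they were -0.075 and -0.31. Pmaip1 (ENSMUSG00000024521), which encodes Noxa, was near the lower limit with 23 and 13 counts in the WT libraries and 9 and 17 in those of cKO. Its log2 fold change of -0.49 had a 95% interval from -1.82 to 0.84, and became 0.029 without WT 1 and -1.02 without cKO 2. Bcl2l11 (ENSMUSG00000027381), which encodes Bim, had 20.2 and 20.5 CPM in WT libraries against 24 and 20.5 in cKO. Only cKO 1 was clearly higher, and cKO 2 exceeded WT 2 by less than 0.1 CPM. The log2 fold change was 0.13 (standard error 0.19), with 0.015 without cKO 1 and 0.25 without cKO 2, so cKO 1 made most of it. Bmf ranged from 29.8 to 32.6 CPM and Bid from 12.2 to 12.5 CPM, in both cases with the cKO libraries at the upper end by less than 1 standard error (log2 fold changes of 0.085 with a standard error of 0.17, and 0.024 with a standard error of 0.21). Hrk, a gene of neuronal death after loss of trophic support, had 11.8, 9.12, 7.43 and 10.1 CPM in the order WT 1, WT 2, cKO 1, cKO 2, with the groups overlapping. Bik had between 4 and 9 counts and was left out of the main test by the filter.

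Ratios within a library do not depend on its scaling, and 6 of Bax or Bcl2l11 to an antiapoptotic gene were set out, per kilobase of exon and with no test. Bax to Bcl2l1 was 0.531 and 0.576 in the WT libraries and 0.666 and 0.707 in those of cKO, with no overlap. Bax to Mcl1 was 0.345, 0.417, 0.382 and 0.597 in the same order, and Bax to Bcl2 was 5.91, 6.81, 5.34 and 10.5. For these ratios the groups overlapped, and only cKO 2 lay above WT. Bcl2l11 to Mcl1 was 0.050 and 0.057 in WT and 0.0632 and 0.0607 in cKO, again apart. Bcl2l11 to Bcl2l1 was highest in cKO 1 (0.110) and lowest in cKO 2 (0.0718), and Bcl2l11 to Bcl2 ran from 0.855 in WT 1 to 1.07 in cKO 2, so both overlapped. No background was computed for the ratios, which share genes, so the 2 that were apart carry no weight as a difference between the groups. The longest transcript of Bax has 63.5% GC, against 55.9% for Bcl2l1, 48.7% for Mcl1 and 46.3% for Bcl2. The part of GC content in these ratios was not tested.

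The other Bcl2-like genes went both ways. Bcl2l13, which encodes a mitochondrial protein with a role in mitophagy, had 90.9 and 97.9 CPM in WT and 100.2 and 99.9 CPM in cKO, which gave 0.084 as log2 fold change (standard error 0.14). Bcl2l12, which lies next to Irf3, had 13.8 and 12.8 CPM in the WT libraries and 11.3 and 10.6 in those of cKO. Both cKO libraries were below both WT libraries, by a log2 fold change of -0.28 with a 95% interval from -0.79 to 0.22. With the groups apart, leaving out 1 library could hardly turn the sign, and the value ran from -0.33 to -0.22. Bcl2l15 had the lowest log2 fold change of the 32 genes, -0.72, on 14 counts in each WT library, 5 in cKO 1 and 12 in cKO 2, and its 95% interval ran from -2.13 to 0.67. It was -0.22 without cKO 1 and -1.48 without cKO 2. Bcl2l14 had 1 count, in cKO 1. Several of these counts are uncertain, since 13 of the 42 genes share exon bases with another gene and the strand setting of the counting is not given in the sources used here. Bcl2l13 and Bid overlap each other by 628 bases on opposite strands, Bcl2l12 overlaps an antisense gene by 572 bases, Bcl2l15 a coding gene by 569 bases, Bax another coding gene by 192 bases, and Diablo overlaps B3gnt4 by 1326 bases.

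Among the tested genes of the apoptosome and the IAPs, the largest gap was within cKO. Apaf1 (ENSMUSG00000019979), the scaffold of the apoptosome, had 47.9 and 50.7 CPM in the WT libraries and 54.1 and 44.8 in those of cKO. Xiap (ENSMUSG00000025860, chromosome X from 42059679 to 42109656), which binds and blocks active caspases, had 62.1, 58.1, 68.2 and 37.5 CPM. For both genes cKO 1 was highest and cKO 2 lowest, and for Xiap cKO 2 had 0.550 times the level of cKO 1. The log2 fold change of Apaf1 was 0.0036 (95% interval from -0.39 to 0.40). That of Xiap was -0.19 (-0.79 to 0.42), and it was -0.68 without cKO 1 and 0.20 without cKO 2. Xiap is X-linked, and WT 2, the library with 0 counts of the Y-linked genes, had a level of it between those of cKO 2 and WT 1. Birc2, a ubiquitin ligase of tumour necrosis factor signalling, showed the same order of the cKO libraries, with 45.9 and 41.5 CPM in WT libraries against 48.6 and 33.5 in cKO. Birc6, the giant IAP, ranged from 124 CPM in WT 1 to 163 in cKO 1, and Diablo, which is released from mitochondria to displace IAPs from caspases, ranged from 45.2 to 48.5 CPM. Birc3 had 16 and 5 counts in WT libraries against 9 and 8 in cKO and was left out of the main test by the filter. Per kilobase of exon Birc2 was highest of the 6 with a mean of 9.26 CPM, followed by Diablo (7.63), Xiap (5.96), Birc6 (5.49) and Apaf1 (5.47). The last 3 overlapped over the libraries, and in cKO 2 Diablo (7.87) lay above Birc2 (7.32).

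Of the initiator caspases none met the study's thresholds, Casp9 and Casp2 differed little, and Casp8 had the fewest counts. Casp9 (ENSMUSG00000028914), activated on Apaf1, had 34.4 and 37.9 CPM in the WT libraries and 35.1 and 35.5 in those of cKO. Casp2 (ENSMUSG00000029863), which responds to DNA damage and extra centrosomes, had 80.4, 82.1, 92.1 and 77.0 CPM in this order. Casp8 (ENSMUSG00000026029), activated at death receptors, had 5.87, 4.72, 4.37 and 4.48 CPM. For Casp9 both cKO libraries lay between the WT libraries, for Casp2 they lay on either side of them, and for Casp8 both lay below WT. The log2 fold changes were -0.035 for Casp9 (95% interval from -0.42 to 0.35), 0.058 for Casp2 (-0.30 to 0.42) and -0.26 for Casp8 (-0.95 to 0.43). Without WT 1, the library with the most Casp8, the value of Casp8 was -0.095, and without WT 2 it was -0.39. Casp9 turned to 0.048 without WT 2, and Casp2 to -0.075 without cKO 1. Per kilobase of exon the means were 11.7 CPM for Casp2, 6.88 for Casp9 and 1.68 for Casp8, in this order in every library. Casp6, which cleaves lamins and acts in axon pruning, ranged from 20.9 to 23.8 CPM with overlapping groups.

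The inflammatory caspases and the death receptor gene Fas were near the limit of detection. Casp1, which matures interleukins, had 6 and 4 counts in WT libraries against 2 and 7 in cKO. Casp4, the sensor of bacterial lipopolysaccharide in the cytosol, had 3, 0, 2 and 2 counts. Casp12 had 2 counts in each WT library and 0 in each cKO library, and Casp14, a caspase of skin, had 1 count in WT 2. No difference was detectable at this depth for these 4 genes, which the filter on low counts left out of the main test. Fas, the receptor of Fas ligand, had 3 and 4 counts in WT and 1 in each cKO library and was left out of the main test too. Tnfrsf10b, the mouse receptor of the ligand TRAIL, had 79 and 51 counts in the WT libraries and 51 and 63 in those of cKO. Its highest level was in WT 1, its groups overlapped, and its log2 fold change was -0.21 (standard error 0.38).

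**Figure D2:**
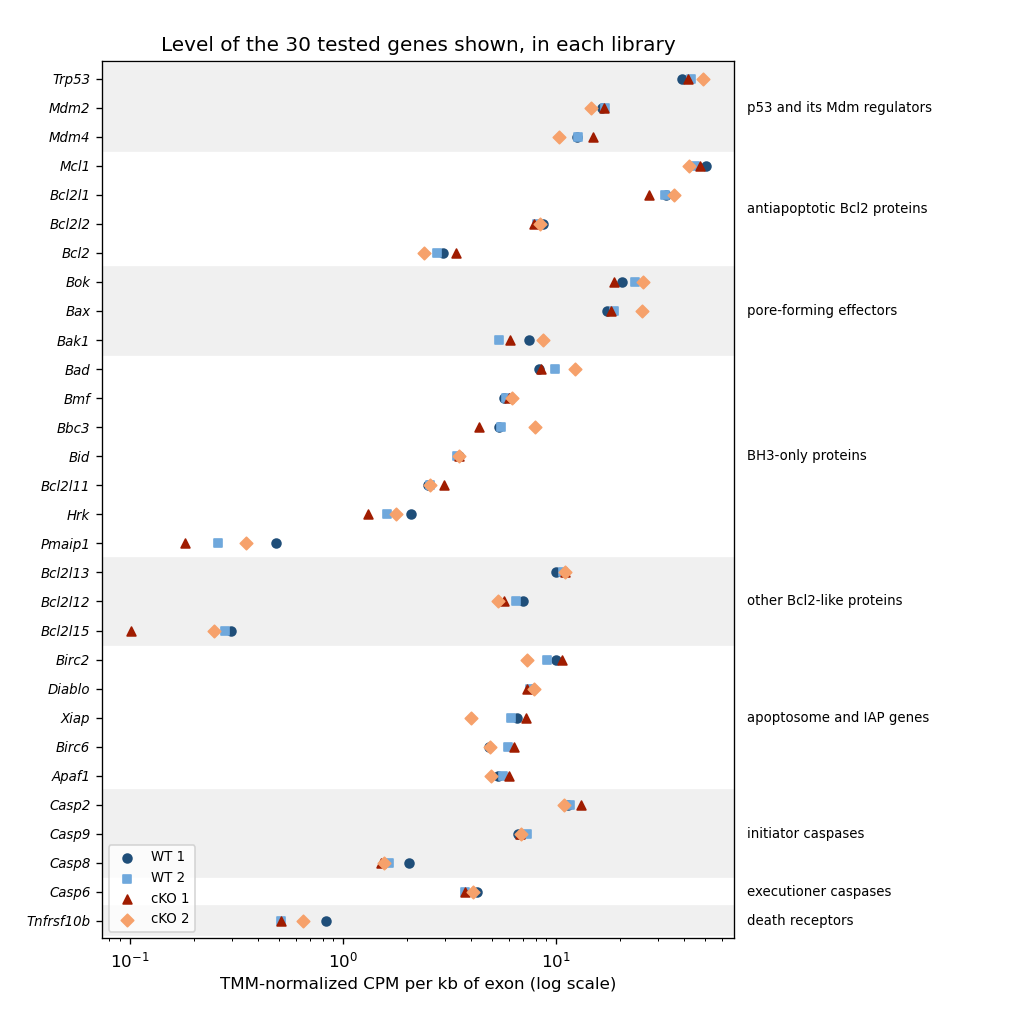
Level in each of the 4 libraries of 30 of the 32 genes tested, in TMM-normalized CPM per kilobase of exon on a log axis, grouped by role. The symbols of WT and cKO overlap for most genes, and Mcl1 (mean 46.2), Trp53 (43.1) and Bcl2l1 (32.0) lie highest among those shown.

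Of the 32 genes, 28 differed less between the group means than between the libraries of 1 group, as did 14125 of the 16145 genes tested. The gap was larger between the cKO libraries than between the WT libraries in 24 of the 32 genes and in 10574 of all genes tested, with a median size on the log2 scale of 0.26 between cKO libraries and 0.10 between WT libraries for the 32 genes, and of 0.30 and 0.18 for all genes tested. In 10 of the 32 genes 1 cKO library lay above and the other below both WT libraries, a pattern of 30.3% of all genes tested. In Bcl2, Apaf1, Birc2, Xiap, Casp2 and Mdm4 the upper library was cKO 1, and in Bcl2l1, Bok, Bbc3 and Diablo it was cKO 2. These names were given after their values were seen.

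The order of the genes between cKO 2 and cKO 1 followed their base composition. Over the 28 genes with a mean of at least 100 counts, Spearman's rho between the ratio of cKO 2 to cKO 1 and the GC content of the longest transcript was 0.90, and with exon length it was -0.65. Between WT 2 and WT 1 the same values were 0.16 and -0.036. Over 11341 genes with as many counts they were 0.72 and -0.45 between the cKO libraries and 0.22 and 0.097 between the WT libraries, so the relation was shared by genes at large. These are correlations across genes that share 2 libraries, and genes are not independent replicates. Of 14 genes with a GC content of at least 50%, 13 were higher in cKO 2 than in cKO 1, from Bbc3 (65.2% GC, 1.84 times) to Bid (51.3% GC, 1.00 times), all but Bcl2l12 (0.939 times). Of 14 genes under 50%, 12 were lower in cKO 2, down to Xiap (36.8% GC, 0.550 times). The cause of the relation was not tested. Correcting each library for GC content, a step chosen after seeing the data, moved the log2 fold change of Xiap from -0.19 to 0.054, that of Bbc3 from 0.18 to 0.11 and that of Bax from 0.26 to 0.22. Other genes moved away from 0, Bcl2l1 from -0.055 to -0.10, Mdm4 from 0.0064 to 0.073 and Bcl2l12 from -0.28 to -0.31. The lowest unadjusted p of the 32 was then 0.116.

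**Figure D3:**
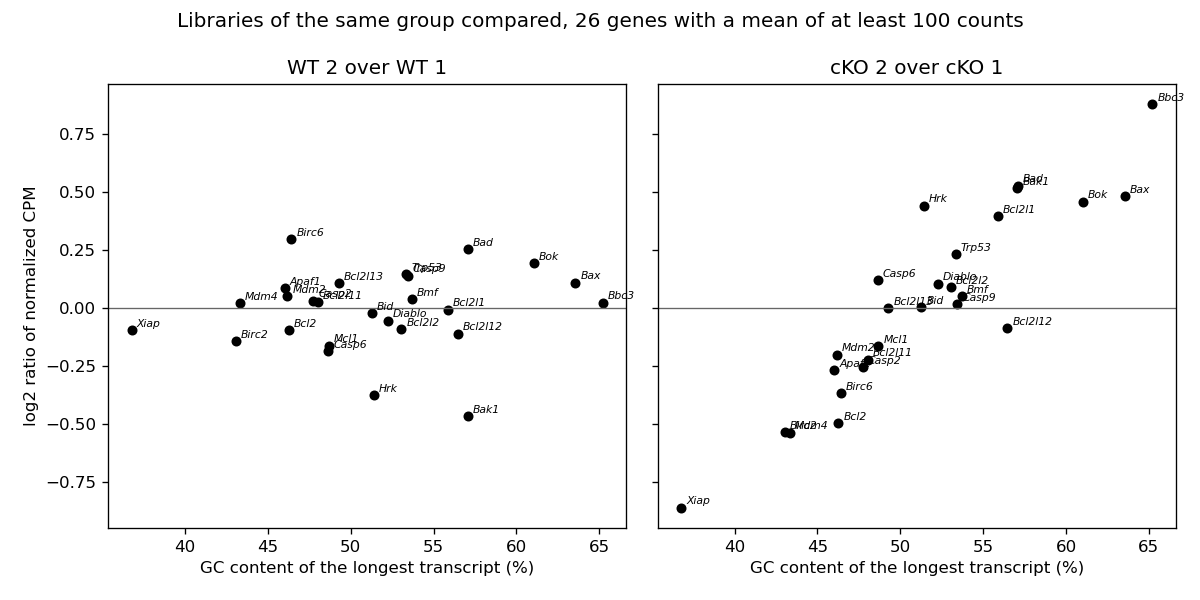
Log2 ratio of normalized CPM between the 2 libraries of a group against the GC content of each gene's longest transcript, for 26 of the 28 genes with a mean of at least 100 counts, WT on the left and cKO on the right. The points rise with GC content for cKO 2 over cKO 1 (rho 0.90 over all 28), with Xiap lowest and Bbc3 highest, and show little slope for WT 2 over WT 1 (rho 0.16 over all 28).

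Among the targets of p53 outside the 42 genes, the median difference was also small, but single genes with few counts ranged further. All 30 on the list were tested, 0 met the study's thresholds in either direction and 0 had an unadjusted p under 0.05, against 0.811% and 1.23% of all genes. The median log2 fold change was -0.020, against -0.0094 over all genes tested. Those with the most reads were Ei24, Btg2, Plk2, Psrc1 and Ckap2, with log2 fold changes of 0.012, 0.073, -0.17, 0.13 and -0.085. Log2 fold changes ran from -1.01 for Perp to 0.24 for Rps27l, and the 95% interval lay inside 2-fold for 21 of the 30. Perp, a membrane protein of cell death and adhesion, had 27 and 17 counts in WT against 7 and 15 in cKO, and its 95% interval ran from -2.35 to 0.31. Next came Cd82 with -0.62 (-1.38 to 0.15), also lower in both cKO libraries than in WT. Of the 30 targets, 5 lay lower in both cKO libraries and 5 higher, Rps27l, Btg2, Gtse1, Aen and Tigar, where 10.8% and 11.0% of all genes did. These extremes were named after their values were seen. Cdkn1a, the cell cycle inhibitor most often read as a sign of p53 activity, was looked at although it was not among these 5. It had 362 and 231 counts in the WT libraries and 180 and 279 in those of cKO, with overlapping groups and a log2 fold change of -0.39 (standard error 0.32). Of the 18 genes of the p53 family, its kinases and its modifiers with a row, 16 were tested and 0 met the thresholds, with a median of 0.048. Trp53bp1, Usp7, Rfwd2, Hipk2 and Trp53bp2, the 5 with the most reads, had log2 fold changes from -0.020 for Rfwd2 to 0.17 for Hipk2. Trp63 and Cdkn2a had at most 4 counts in any library, whereas Trp73 had from 542 to 688.

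Downstream and alongside, 17 of 18 listed ligands, receptors and adaptors of the death receptors had a row and 13 were tested. Here 0 passed the thresholds in either direction, against 0.811% of all genes, and the median log2 fold change was -0.071. The 5 with the most reads were Tnfrsf21, known as death receptor 6, Casp8ap2, Traf2, Cyld and Ngfr, and their log2 fold changes ran from -0.12 for Tnfrsf21 to 0.088 for Cyld. Of the 25 mitochondrial and nuclease genes with a row, 19 were tested, 0 met the thresholds and the median was 0.0099. Acin1, Parp1, Vdac1, Vdac2 and Mtch2 had the most reads, with log2 fold changes from 0.0059 for Vdac1 to 0.12 for Parp1. The list as a whole ran from -0.68 for Bnip3 (95% interval from -1.46 to 0.091) to 0.55 for Endog (-0.29 to 1.38), extremes named after their values were seen. Bnip3, a mitophagy gene induced by low oxygen, was highest in WT 1, with 329 and 175 counts in WT against 172 and 148 in cKO. For Endog, a mitochondrial nuclease, the counts were 38 and 60 in WT and 65 and 79 in cKO. Of 9 inflammasome genes with a row, 5 were tested and 0 met the thresholds, with a median of -0.0065. Dfna5, the older symbol of gasdermin E, a pore-forming protein, had 32.9 and 22.6 CPM in the WT libraries and 22.4 and 17.8 in those of cKO, with a log2 fold change of -0.47 (standard error 0.24). WT 1 was highest, and WT 2 and cKO 1 were nearly equal. Aim2, a sensor of cytosolic DNA, had 22.0, 11.5, 20.4 and 13.9 CPM in this order, with replicate 1 of each group near the other, and Gsdmd, Il18 and Pycard had log2 fold changes of -0.0065, 0.062 and -0.083.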

How the data were processed

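The authors deposited raw counts of reads per gene, and their notes name TopHat2 2.0.12, Bowtie2 2.2.3, HTSeq 0.6.0 and the build mm9. Of the genes found in GENCODE M21 (GRCm38), 97.3% have a start or end within 1 base of it, so positions were read as GRCm38. Blank rows (0.0403%) were left out, and the authors' columns of means, CPM, fold changes and p-values were not used. The members in both deposited tables (37 of 42) had identical counts. Counts were filtered (filterByExpr), TMM-normalized and tested with edgeR 4.0.16 in R 4.3.3 (quasi-likelihood test, no covariate), with DESeq2 1.42.0 on unfiltered counts as an alternative, and the code was tested on simulated data. Intervals are t intervals on the unshrunken coefficient. Exon lengths are unions of annotated exons, GC content is that of the longest transcript, and correlations used scipy 1.17.1. Named genes were key members, every member or pathway gene with an unadjusted p of at most 0.05, and the 3 largest log2 fold changes each way. The 5 pathway genes with most reads per list were named too. Members and lists were chosen with earlier results of these data known. Alternatives were other normalizations and filters, DESeq2, a replicate block, leaving out each library and, added after seeing the data, GC and length offsets.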

Additional observations from a re-analysis of the deposited data

How the results depend on the processing

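The count of 0 of the 32 genes at the study's thresholds, and at an adjusted p under 0.05, was 0 under every alternative run (RLE or upper-quartile factors, no filter, a minimum of 10 counts in each library, DESeq2, the replicate block, each library left out, and the GC and exon-length offsets chosen after seeing the data). At an unadjusted p under 0.05 the count was 0 in each of these except without cKO 1, where Xiap, Birc2, Bbc3, Bad and Bax passed, as did 2542 of 16915 genes. The genes of the list that were tested varied. They numbered 42 with no filter and in DESeq2, and 30 with the minimum of 10 counts. Without WT 2, cKO 1 or cKO 2 they numbered 33, and in the remaining alternatives 32. A group left with 1 library was assumed to vary like the other. With 2 libraries a group and few counts in Pmaip1, Bcl2l15 and Tnfrsf10b, a 2-fold lower level in cKO lay inside the intervals of these genes, and a 2-fold higher level lay outside.

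Over all genes, 131 met the study's thresholds, 405 with no filter beyond 1 count, 72 with 10 counts or more required in each library, 82 with DESeq2, run on all 27293 genes so that filter and test changed together, and 104 to 531 with a library left out. At an adjusted p under 0.05 there were 0, with 65 under no filter and 0 to 116 with a library left out. Of the pathway genes, 0 met the thresholds, and 0 to 1 with a library left out. Of the 32 genes, those parted between the groups numbered 5 higher and 3 lower in cKO, and 8 to 13 and 6 to 12 with a library left out, as the shares of all genes rose to between 24.1% and 37.3% and between 23.8% and 38.2%. Apart from the size of the groups, the cause was not tested.

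Both groups use the replicate numbers 1 and 2, though a shared litter or batch is nowhere stated. Across genes, the deviations from the group mean correlated between libraries of like number at 0.139. With the replicate block, 208 genes met the study's thresholds and 5 had an adjusted p under 0.05, none of them among the 32, and the log2 fold changes of Bok, Apaf1 and Mdm4 turned to -0.0012, -0.0019 and -0.018.

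Of 20 named genes, 6 kept their sign under every alternative in which they were tested. Among these, Bcl2l11, Casp8, Bcl2l12 and Bcl2l15 had groups that did not overlap, so leaving out 1 library could hardly turn their sign. The GC offset turned Bok to -0.033 and Xiap to 0.054, and the exon-length offset turned Bok to -0.030. With a library left out, the log2 fold change turned sign in 14, ranging from -0.24 to 0.27 for Bcl2, from -0.25 to 0.13 for Bcl2l1, from -0.17 to 0.0049 for Mcl1, from -0.074 to 0.44 for Bak1, from -0.22 to 0.22 for Bok, from -0.31 to 0.55 for Bbc3, from -1.02 to 0.029 for Pmaip1, from -0.10 to 0.048 for Casp9, from -0.075 to 0.19 for Casp2, from -0.14 to 0.14 for Apaf1, from -0.68 to 0.20 for Xiap, from -0.19 to 0.026 for Mdm2, from -0.29 to 0.26 for Mdm4 and from -0.075 to 0.44 for Bad.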
